A study of Homo sapiens with 5 samples.

Results

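Fibroblast growth factor (FGF) signalling was examined in HCC827/GR and HCC827 cells through 10 genes chosen by name, which are the receptors FGFR1, FGFR2, FGFR3 and FGFR4, the receptor-like FGFRL1, the binding protein FGFBP1, and the ligands FGF1, FGF2, FGF5 and FGF19. Each of the 10 symbols had a single entry among the 37181 entries of the deposited expression table. HCC827 is an established human lung adenocarcinoma cell line with an exon 19 deletion of EGFR and is sensitive to gefitinib, an EGFR kinase inhibitor. HCC827/GR cells carry the same deletion and were made resistant from HCC827 by stepwise gefitinib for over 6 months. RNA sequencing of 3 HCC827/GR libraries (replicates 1, 2 and 3) was compared with that of 2 HCC827 libraries (replicates 2 and 3). Each line is a single derivation, and nothing in the sources says that the libraries of a line came from separate cultures, so p-values measure only the spread between these libraries, which may be technical.

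FGFs are secreted ligands that bind receptor tyrosine kinases on the cell surface, and binding needs heparan sulfate chains or, for the endocrine ligands such as FGF19, a Klotho protein as co-receptor. The activated receptor phosphorylates the docking protein FRS2 and feeds the RAS-MAPK and PI3K-AKT pathways, which EGFR also uses. In lung cancer cells, FGF2 acting on FGFR1 is a known bypass route when EGFR is blocked. Epithelial cells usually carry the epithelial splice forms of FGFR2 and FGFR3, whereas FGFR1 is typical of mesenchymal cells.

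Expression was read as FPKM, which scales the fragments of a gene by transcript length and by the size of the library, so levels of different genes can be set side by side. FPKM carries no read counts, and the depth of each library is therefore unknown. A rough estimate from the lowest values put the other 4 libraries at 0.927 to 1.26 times the depth of HCC827/GR replicate 1. Log2 fold changes compare HCC827/GR with HCC827 after 1 was added to each FPKM, and this makes the change of weakly expressed genes look smaller than it was. They were tested with limma on the 16189 entries whose mean reached 0.5 FPKM, with SE for the standard error, and a gene was called at a Benjamini-Hochberg adjusted p under 0.05 over all entries tested. Among these entries 5.26% were called higher and 5.71% were called lower in HCC827/GR cells, and 11.0% were called in either direction.

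The carcinoma markers of the epithelial list (EPCAM, KRT8, KRT18, KRT19 and CDH1) were present in every library, with a summed level of 443 to 573 FPKM in HCC827/GR and 1063 to 1182 FPKM in HCC827 libraries. NKX2-1, a lung adenocarcinoma marker, had 4.60 and 4.003 FPKM in HCC827 and 0.963, 0.762 and 0.416 FPKM in HCC827/GR libraries. The 7 fibroblast markers summed to between 2.72 and 3.06 FPKM in HCC827/GR and between 3.33 and 3.44 FPKM in HCC827 libraries, with COL1A2 and DCN at or near 0 in all. The immune marker PTPRC was at 0.0228 FPKM or lower in all 5 libraries, although CD68, which many cell types express, stood at 30.8 to 38.9 FPKM. The 4 endothelial markers summed to 0.0672 to 0.108 FPKM in HCC827/GR and 3.38 to 4.44 FPKM in HCC827 libraries. Nearly all of the latter came from PECAM1, which was listed at 0 in each HCC827/GR library. The symbol PECAM1 had 10 entries, and these values are those of the entry with the highest mean alone. All 5 epithelial markers measured, NKX2-1 and this entry of PECAM1 were lower in every HCC827/GR library than in both HCC827 libraries, the direction of FGFBP1 below. KDR of the endothelial list went the other way, at 0.0584 to 0.0830 FPKM in HCC827/GR libraries and at 0 and 0.00672 FPKM in HCC827 libraries. PDGFRB of the fibroblast list did so too, at 0.184 to 0.278 FPKM in HCC827/GR libraries and 0.00777 and 0.0147 FPKM in HCC827 libraries, the direction of FGFR1. PDGFRA, LUM and COL3A1 of the fibroblast list were instead lower in every HCC827/GR library than in both HCC827 libraries. PDGFRA had 1.88 to 1.91 FPKM in HCC827/GR and 2.40 and 2.53 FPKM in HCC827 libraries. COL1A1, COL1A2 and DCN overlapped between the lines. The part of these markers in the results was not tested.

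Of the 10 genes, 6 had a mean of 0.5 FPKM or more and entered the test, whereas 4 (FGFR2, FGF1, FGF5 and FGF19) lay lower and are given as values. FGFR1 and FGFR4 rose, FGFBP1 fell, and FGFR3, FGFRL1 and FGF2 were not called. Of all tested entries 5.26% were called higher and 5.71% lower. The values of the lines did not overlap in 3 of the 6, where 46.3% of all tested entries did not overlap. The panel of levels by library shows the receptors, the binding protein and the ligands together.

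**Figure D1:**
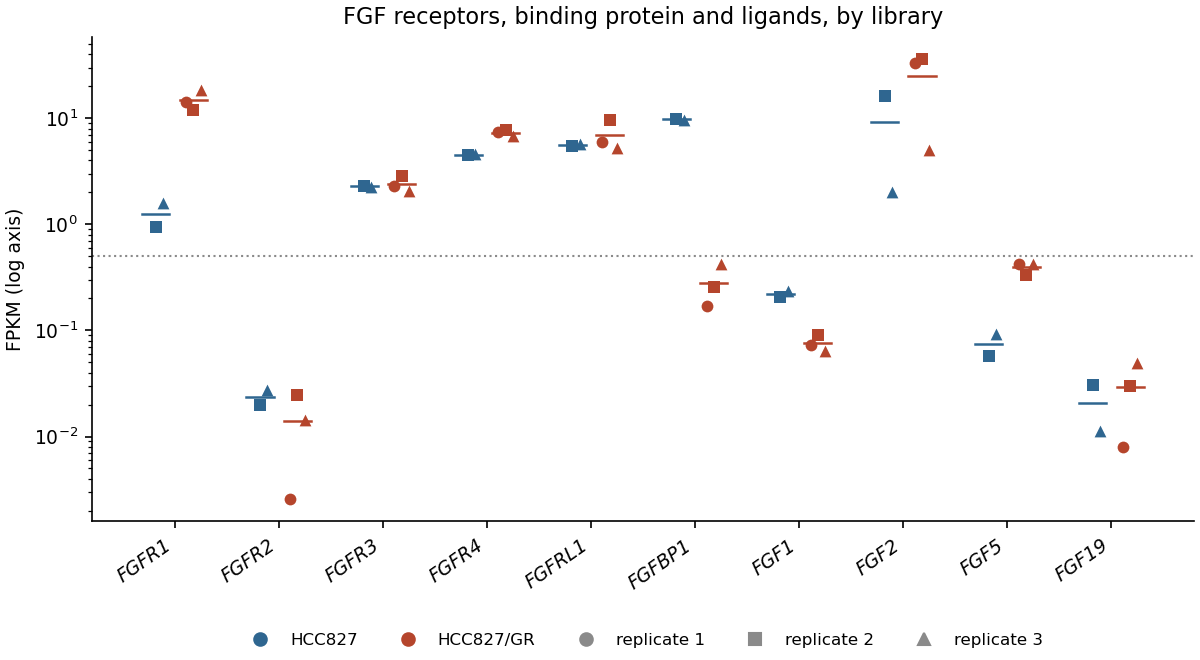
FPKM of the 10 genes on a log axis, with a point for each library, blue for HCC827 and red for HCC827/GR. The marker shape gives the replicate number, the short bar the mean of the line, and the dotted line the mean of 0.5 FPKM needed for testing. FGFR1 lay at 12.0 to 18.6 FPKM in HCC827/GR and at 0.935 and 1.59 FPKM in HCC827 libraries, FGFBP1 went the other way, and FGF2 was spread widely within both lines.

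FGFR1 encodes the receptor tyrosine kinase that FGF2 binds in many mesenchymal cells. The gene lies on chromosome 8 of GRCh38 from 38400215 to 38468834 on the minus strand, and its entry pooled 44 transcripts, of which 40 were Ensembl transcripts and 4 had been assembled from the reads. In HCC827/GR cells, FGFR1 had 14.2 FPKM in replicate 1, 12.0 FPKM in replicate 2 and 18.6 FPKM in replicate 3. In HCC827 replicates 2 and 3 it had 0.935 and 1.59 FPKM. Every HCC827/GR library was therefore above both HCC827 libraries, with means of 14.9 ± 3.34 FPKM (SD, n = 3) and 1.26 ± 0.465 FPKM (SD, n = 2). The ratio of the means was 11.8, and the log2 fold change was 2.81 (SE 0.23, 95% interval 2.21 to 3.41, limma with Benjamini-Hochberg, adjusted p = 0.00661). It ranked 31 of 16189 from the highest log2 fold change. In bulk RNA, a larger share of cells with FGFR1 and more FGFR1 RNA per cell cannot be told apart. Without HCC827 replicate 2 the adjusted p from limma was 0.0501 with a log2 fold change of 2.60, and with any other library left out it stayed between 0.0253 and 0.0392.

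Of the genes beside or overlapping FGFR1, only NSD3 was high enough to be tested, and it did not show a change of this size. NSD3, a histone methyltransferase gene and the nearest protein-coding gene before FGFR1, had 3.76, 3.54 and 3.59 FPKM in HCC827/GR and 4.15 and 3.32 FPKM in HCC827 libraries. The log2 fold change of NSD3 came to -0.03 (SE 0.11, limma adjusted p = 0.905). C8orf86, the nearest on the other side, was at 0.0668 FPKM or lower in every library. LETM2 overlaps the end of FGFR1 on the opposite strand and was well below FGFR1 in each library. It was higher in HCC827/GR, with 0.449, 0.351 and 0.415 FPKM, than in HCC827 libraries, with 0.257 and 0.270 FPKM. AC087623.1, also on the opposite strand, had 0.307, 0.628 and 0.309 FPKM in HCC827/GR and 0 and 0.208 FPKM in HCC827 libraries. Whether the counting used the strand is not given in the sources used here.

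FGFR4 is the receptor that pairs with KLB to receive FGF19, and it lies on chromosome 5 of GRCh38 from 177086886 to 177098144 on the plus strand. In HCC827/GR cells it had 7.41 FPKM in replicate 1, 7.78 FPKM in replicate 2 and 6.78 FPKM in replicate 3. The HCC827 replicates 2 and 3 had 4.52 and 4.56 FPKM. The HCC827/GR libraries lay above the HCC827 libraries with little spread in either line, and the ratio of the means was 1.61. FGFR4 had a log2 fold change of 0.59 (SE 0.096, 95% interval 0.34 to 0.84, limma with Benjamini-Hochberg, adjusted p = 0.0290). With any one library left out the log2 fold change stayed between 0.55 and 0.63, but the adjusted p from limma ran from 0.0551 to 0.118, so no such fit called it.

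FGFR3 had 2.31, 2.87 and 2.08 FPKM in HCC827/GR and 2.32 and 2.25 FPKM in HCC827 libraries. The values of the lines overlapped. For FGFR3 the log2 fold change was 0.05 (SE 0.13, limma adjusted p = 0.844), and the 95% interval from -0.29 to 0.39 leaves room for a modest change either way. FGFR2 was close to 0 in both lines, at 0.00256, 0.0247 and 0.0144 FPKM in HCC827/GR and 0.0197 and 0.0277 FPKM in HCC827 libraries. FGFRL1, which resembles the receptors outside the cell but lacks the kinase domain, had 5.93, 9.59 and 5.26 FPKM in HCC827/GR and 5.47 and 5.68 FPKM in HCC827 libraries. HCC827/GR replicate 2 stood above the other 4 libraries, which were alike. For FGFRL1 the log2 fold change was 0.23 (SE 0.25, 95% interval -0.42 to 0.88, limma adjusted p = 0.616), and without that replicate it was 0.0027.

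The make-up of the receptors differed between the lines. FGFR1 supplied 59.3%, 53.0% and 67.7% of the summed FPKM of FGFR1 to FGFR4 in HCC827/GR replicates 1, 2 and 3. In HCC827 replicates 2 and 3 it supplied 12.0% and 18.9%. FGFR4 was the leading receptor of HCC827 cells with 58.0% and 54.1%, against 31.0%, 34.3% and 24.7% in HCC827/GR libraries. FGFR3 took 29.8% and 26.7% in HCC827 and 7.58% to 12.6% in HCC827/GR libraries, while its own level overlapped between the lines. The summed receptor level was 23.9, 22.7 and 27.5 FPKM in HCC827/GR and 7.79 and 8.43 FPKM in HCC827 libraries. These shares describe the libraries and were not tested.

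**Figure D2:**
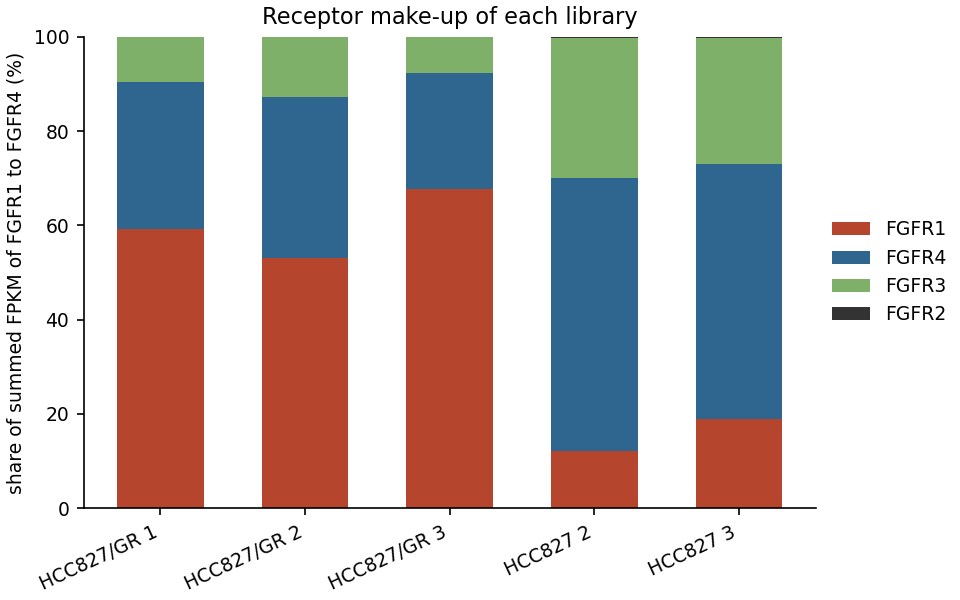
Stacked bars give the share, in percent, of each receptor in the summed FPKM of FGFR1 to FGFR4, with a bar for each library. FGFR1 (red) took 53.0% or more in the 3 HCC827/GR libraries and 18.9% or less in the 2 HCC827 libraries, and FGFR2 (black) is too low to be seen clearly.

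FGFBP1 encodes a secreted carrier that binds FGFs such as FGF1 and FGF2 and releases them from the heparan sulfate of the matrix. It lies on chromosome 4 of GRCh38 from 15935569 to 15938740 on the minus strand, has 3 exons in its single Ensembl transcript, and is among the leading changed mRNAs that the study selected from this experiment, so its direction here is not independent evidence. In HCC827/GR cells, FGFBP1 had 0.169 FPKM in replicate 1, 0.258 FPKM in replicate 2 and 0.420 FPKM in replicate 3. In HCC827 replicates 2 and 3 it had 9.79 and 9.69 FPKM. The lines were far apart and the HCC827 libraries nearly equal, with means of 0.282 ± 0.127 FPKM (SD, n = 3) and 9.74 ± 0.0677 FPKM (SD, n = 2), and the mean was 34.5 times higher in HCC827. The log2 fold change was -3.07 (SE 0.12, 95% interval -3.39 to -2.76, limma with Benjamini-Hochberg, adjusted p = 0.00174). By p it ranked 25 among the 16189 entries, and it reached the mean of 0.5 FPKM only through the HCC827 libraries. With any one library left out the adjusted p from limma stayed between 0.0129 and 0.0299. The log2 ratio of the means was -5.11, and the log2 fold change was -4.74 when 0.1 was added to each FPKM.

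The neighbour of FGFBP1 before it on chromosome 4 is CD38, an NAD-consuming surface enzyme. CD38 had 0.000243 FPKM in HCC827/GR replicate 1, was listed at 0 in replicate 2 and had 0.00899 FPKM in replicate 3, against 0.958 and 0.628 FPKM in HCC827 replicates 2 and 3. Its mean was below 0.5 FPKM, and with no filter on low values its adjusted p from limma was 0.0366. FGFBP2, the neighbour on the other side, was not analysed here.

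The sequences before the starts of FGFBP1 and FGFR4 are shown because these are, among the genes called, the members for which the RefSeq promoter table (GRCh38.p14) held a window. The table held windows for 8 of the 10 genes, with 17 windows in all, and none for FGFR1 and FGF19. Each line gives the 250 bases before the start annotated in RefSeq, 5′ to 3′ on the strand of the gene, in lower case. For FGFR4 it is the first of 2 starts. This RefSeq start lies after the first base of FGFR4 given above, so the end of its window falls inside those bounds. Capitals mark matches on either strand to any of 5 motifs. The letters GGGCGG stood for the GC box bound by SP factors. The letters CAGGTG stood for the E-box to which SNAI and ZEB repressors bind. An AP-1 site was searched for as TGANTCA, in which N is any base. A TATA box was read from the letters TATAAA, and a TEAD site from GGAATG.
FGFBP1, chr4:15938741-15938990, minus strand: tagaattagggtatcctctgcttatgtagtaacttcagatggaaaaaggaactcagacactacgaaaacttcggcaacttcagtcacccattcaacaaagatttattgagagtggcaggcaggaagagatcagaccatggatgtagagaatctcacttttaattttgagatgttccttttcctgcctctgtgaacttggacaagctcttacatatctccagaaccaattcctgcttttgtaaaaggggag
FGFR4, chr5:177086665-177086914, plus strand: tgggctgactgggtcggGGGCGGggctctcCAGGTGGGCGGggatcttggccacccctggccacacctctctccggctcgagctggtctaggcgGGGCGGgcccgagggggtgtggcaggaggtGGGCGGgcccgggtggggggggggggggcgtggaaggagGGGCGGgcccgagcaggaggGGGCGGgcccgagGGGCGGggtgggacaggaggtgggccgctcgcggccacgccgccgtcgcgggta
The FGFBP1 window held none of these letters and 2 CpG dinucleotides, with a GC content of 40.8%, higher than 14.1% of the 35116 windows in the table. The FGFR4 window held 7 GC boxes and 1 E-box, which overlaps the second GC box, and 24 CpG dinucleotides, with a GC content of 79.6%. Of all windows of this length 42.6% held the GC box, 17.5% the E-box, 11.9% the TEAD site, 10.7% the TATA box and 6.57% the AP-1 site. A median window held 11 CpG dinucleotides. A match describes letters only and is not a site of binding, and a motif that is missing here says nothing about the factor.

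FGF2, the ligand most often tied to FGFR1 and a binding partner of FGFBP1, was the only one of the 4 ligands above 0.5 FPKM. The gene lies on chromosome 4 of GRCh38 from 122826708 to 122898236 on the plus strand, and its entry joined 1 Ensembl transcript and 1 transcript assembled from the reads. In HCC827/GR cells, FGF2 had 33.2 FPKM in replicate 1, 36.4 FPKM in replicate 2 and 5.06 FPKM in replicate 3. In HCC827 replicates 2 and 3 it had 16.2 and 2.03 FPKM. Replicate 3 was the lowest library of each line, and the lines overlapped because HCC827/GR replicate 3 lay below HCC827 replicate 2. The log2 fold change was 1.45 (SE 1.15, 95% interval -1.53 to 4.44, limma with Benjamini-Hochberg, adjusted p = 0.482), so that neither a rise nor a fall of several fold could be shown at this spread.

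Replicate 3 stood 7.19 times below replicate 2 in HCC827/GR and 8.01 times below it in HCC827 cells. Within the libraries numbered 2, FGF2 was 2.24 times higher in HCC827/GR than in HCC827, and within those numbered 3 it was 2.50 times higher. With the replicate number as a block, the log2 fold change of FGF2 was 1.06 with an adjusted p from limma of 0.133. That fit called 0 entries in either direction, and the labels do not say that the numbers pair libraries. Of 14411 tested entries above 0 in these 4 libraries, 28 were lower in replicate 3 by at least 4 times in both lines and 19 were higher in this way. Leaving out single libraries moved the log2 fold change of FGF2 from 0.20 (without HCC827 replicate 3) to 2.71 (without HCC827 replicate 2), with an adjusted p from limma between 0.249 and 0.939. Without both libraries numbered 3, a choice made after the data were seen, it was 1.05 with an adjusted p from limma of 0.135, and what the number 3 stands for is not given in the sources. NUDT6, which overlaps the end of FGF2 on the opposite strand, had 5.21, 0.661 and 2.24 FPKM in HCC827/GR and 1.11 and 3.34 FPKM in HCC827 libraries, and was not low in the libraries in which FGF2 was low. Reads of the overlapping ends cannot be told apart if strand was not used.

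The other ligands were low throughout. FGF5, which binds FGFR1, had 0.426, 0.333 and 0.424 FPKM in HCC827/GR and 0.0576 and 0.0922 FPKM in HCC827 libraries, so that the lines did not overlap and the ratio of the means was 5.26. FGF1, which binds all FGF receptors, went the other way, with 0.0735, 0.0907 and 0.0640 FPKM in HCC827/GR and 0.208 and 0.237 FPKM in HCC827 libraries, a mean 2.93 times higher in HCC827. With no filter on low values, limma gave an adjusted p of 0.0867 for FGF5 and 0.0800 for FGF1 (unadjusted p of 0.00563 and 0.00478). FGF19, the endocrine ligand of FGFR4, was between 0.00792 and 0.04905 FPKM in all libraries, and the lines overlapped. LTO1, the neighbour of FGF19 toward CCND1, had a log2 fold change of -0.22 (SE 0.13, limma adjusted p = 0.374), and FGF4 on the other side was not analysed here.

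Within HCC827/GR cells the order of mean levels was FGF2 (24.9 FPKM), FGFR1, FGFR4, FGFRL1, FGFR3, FGF5, FGFBP1, FGF1, FGF19 and FGFR2. Neighbours whose libraries overlapped in this order were FGF2 and FGFR1, FGFR4 and FGFRL1, FGF5 and FGFBP1, and FGF19 and FGFR2. In HCC827 cells the order was FGFBP1, FGF2, FGFRL1, FGFR4, FGFR3, FGFR1, FGF1, FGF5, FGFR2 and FGF19. There FGF2 overlapped with both FGFBP1 and FGFRL1, FGFR2 overlapped with FGF19, and the other neighbours in the order did not overlap. FGFBP1 thus stood first in HCC827 and seventh in HCC827/GR cells, whereas FGFR1 stood sixth and second.

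**Figure D3:**
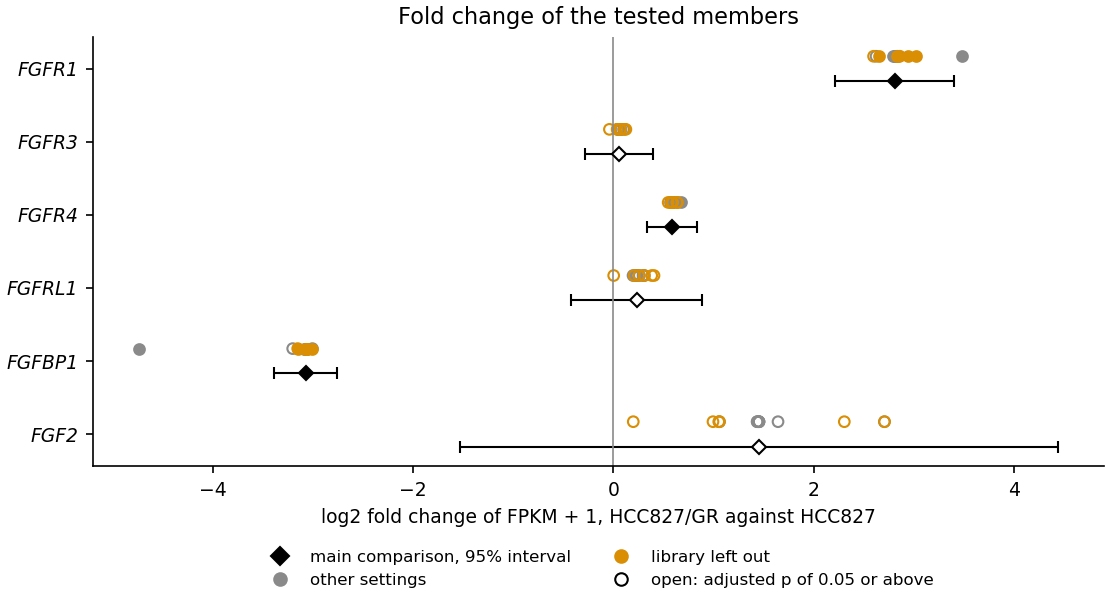
Log2 fold changes of FPKM + 1 for the 6 genes tested, HCC827/GR against HCC827. Diamonds give the main comparison with its 95% interval, and circles the alternatives (orange where a library was left out, gray otherwise), with open symbols for an adjusted p of 0.05 or above. FGFBP1 and FGFR1 kept their direction throughout, FGFR4 stayed near 0.59 while its adjusted p crossed the threshold, and FGF2 ran from 0.20 to 2.71.

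The profiles closest to FGFBP1, FGFR1 and FGF2 were looked for among 12017 other tested entries with a protein-coding symbol, as the smallest root-mean-square difference of log2(FPKM + 1) after each profile was centred on its own mean over the 5 libraries. Closest to FGFBP1 were VOPP1 (a difference of 0.045), TMC5 (0.067) and TRIM55 (0.10). Closest to FGFR1 was CDH2, the N-cadherin gene (0.13), followed by ANKRD1 (0.18) and ARHGAP23 (0.18). The genes nearest to FGF2 were less alike and were KLHL9 (0.30), GON7 (0.48) and WWTR1 (0.57), each with low values in replicate 3 of both lines. KLHL9 had 8.77, 9.30 and 0.359 FPKM in HCC827/GR and 6.02 and 0.0803 FPKM in HCC827 libraries. These genes are named for the shape of their values alone.

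Of 103 further genes of the FGF pathway in 8 lists, 90 had an entry and 66 were tested, of which 3 were called higher and 4 lower. The median log2 fold change of the 66 was -0.02, against 0.00143 over all entries tested, and the values of the lines did not overlap in 30 of them, where 46.3% of all tested entries did not overlap. Called genes were 7 of 66, close to the 11.0% of all tested entries. Of the 14 other FGF ligands 8 had an entry, and none of these 8 reached a mean of 0.5 FPKM. FGF9, one of these, was listed at 0 in HCC827/GR replicates 1 and 2 and had 0.00679 FPKM in replicate 3. It had 0.166 and 0.125 FPKM in HCC827 libraries, with an adjusted p from limma of 0.0343 when no filter was applied. FGF22 and FGF8 went the other way without overlap. FGF22 had 0.0797 to 0.140 FPKM in HCC827/GR and 0.00671 and 0.0298 FPKM in HCC827 libraries. Its adjusted p from limma was 0.176 with no filter. KLB, the co-receptor of FGFR4 for FGF19, was at 0.344 to 0.394 FPKM in all 5 libraries and overlapped between the lines.

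Among the co-receptors and other binding proteins, 2 of 9 tested genes were called, both higher, where 5.26% of all tested entries were called higher. GPC4, a glypican that carries heparan sulfate on the cell surface, had 2.72, 4.29 and 2.19 FPKM in HCC827/GR and 0.0615 and 0.0313 FPKM in HCC827 libraries (log2 fold change 1.93, SE 0.24, limma adjusted p = 0.0153). CDH2, which can bind FGFR1 at the membrane and slow its internalization, had 8.41, 6.85 and 9.95 FPKM in HCC827/GR and 0.415 and 0.645 FPKM in HCC827 libraries (log2 fold change 2.61, SE 0.18, limma adjusted p = 0.00464). Both lay clear of the HCC827 libraries in every HCC827/GR library, and GPC4 reached the mean of 0.5 FPKM only through the HCC827/GR libraries. The syndecan genes SDC1 and SDC4, which encode surface carriers of heparan sulfate, were not called, with log2 fold changes of -0.16 and -0.26. For GPC4 the adjusted p from limma reached 0.0970 when single libraries were left out, whereas for CDH2 it stayed at or below 0.0418.

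Of 12 tested enzymes of heparan sulfate, only EXT1 was called, where 11.0% of all tested entries were called in either direction. EXT1, which elongates the chain, had 12.8, 10.9 and 11.6 FPKM in HCC827/GR and 7.88 and 7.61 FPKM in HCC827 libraries (log2 fold change 0.54, SE 0.10, limma adjusted p = 0.0413). Its partner EXT2 had a log2 fold change of -0.40 (limma adjusted p = 0.0510). The call of EXT1 was lost with each of the 5 libraries left out, at an adjusted p from limma of 0.0831 to 0.143.

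None of the 22 tested adaptors and signal transducers was called by limma, where 11.0% of all tested entries were called in either direction. The Ballgown-style model also called none of them. It called only 6 of 16189 entries higher and 9 lower, so its lack of a call here says little. At an unadjusted p under 0.05 from limma, 2 of the 22 were lower, where 13.8% of all tested entries were lower and 13.4% higher. Their log2 fold changes ran from -0.75 for PTPN11, the phosphatase that relays receptor signals to RAS, to 0.28 for SOS1. FRS2, the docking protein, had a log2 fold change of -0.36 (SE 0.51), with 8.67 and 2.87 FPKM in the HCC827 libraries. FGF pathway signal transducers thus gave no call in either direction, and intervals of this width leave moderate changes possible.

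Feedback inhibitors are genes that MAPK signalling switches on and that then restrain it. Of 9 tested, none was called by limma, where 11.0% of all tested entries were called in either direction. The Ballgown-style model also called none of the 9, but it called only 6 of 16189 entries higher and 9 lower. The median log2 fold change of the 9 was -0.33. At an unadjusted p under 0.05, 3 of the 9 were lower and 0 higher, beside the 13.8% and 13.4% of all tested entries. DUSP6, the ERK phosphatase often read as a marker of FGF signalling, stayed below the mean of 0.5 FPKM. It had 0.0139, 0.0621 and 0.340 FPKM in HCC827/GR and 1.01 and 1.03 FPKM in HCC827 libraries, and with no filter its adjusted p from limma was 0.0888. SPRY4 had 0.145, 0.263 and 0.0915 FPKM in HCC827/GR and 0.498 and 1.40 FPKM in HCC827 libraries, with an adjusted p from limma of 0.239 when no filter was applied. In both genes every HCC827/GR library was below both HCC827 libraries. IL17RD went the other way, with 1.92, 2.17 and 1.94 FPKM in HCC827/GR and 1.80 and 1.47 FPKM in HCC827 libraries. The log2 fold changes of SPRY3 and DUSP5 were 0.015 and -0.047. The lines did not overlap in 6 of the 9 tested genes, where 46.3% of all tested entries did not overlap. SPRED2 and SPRY2, counted among these 6, reached the mean of 0.5 FPKM only through the HCC827 libraries. Their means were 0.213 and 0.426 FPKM in HCC827/GR and 1.85 and 0.849 FPKM in HCC827 cells. SPRED2, whose symbol had 2 entries, is also among the 3 genes lower at the unadjusted p.

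Among 8 tested transcriptional outputs, ETV4 and ETV1 fell and none was called higher. Of all tested entries 5.71% were called lower and 5.26% higher. ETV4, an ETS factor induced by FGF and EGFR signalling, had 0.781, 0.553 and 1.10 FPKM in HCC827/GR and 3.71 and 4.25 FPKM in HCC827 libraries (log2 fold change -1.47, SE 0.16, limma adjusted p = 0.0122). ETV1, a close relative, had 0.6496, 0.848 and 0.897 FPKM in HCC827/GR and 4.57 and 2.33 FPKM in HCC827 libraries (log2 fold change -1.26, SE 0.25, limma adjusted p = 0.0418). The lines did not overlap in either gene. With single libraries left out the adjusted p from limma reached 0.0778 for ETV4 and 0.123 for ETV1. CCND1 and MYC were not called, with log2 fold changes of -0.60 and 0.48.

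The splicing factors ESRP1 and ESRP2, which favour the epithelial form of the FGF receptors, both fell. They were 2 of 5 tested genes of their list, where 5.71% of all tested entries were called lower. ESRP1 had 0.0476, 0.1002 and 0.0475 FPKM in HCC827/GR and 16.3 and 12.3 FPKM in HCC827 libraries (log2 fold change -3.83, SE 0.14, limma adjusted p = 0.00161). ESRP2 had 3.47, 3.70 and 3.37 FPKM in HCC827/GR and 6.00 and 5.63 FPKM in HCC827 libraries (log2 fold change -0.59, SE 0.090, limma adjusted p = 0.0245). ESRP1 reached the mean of 0.5 FPKM only through the HCC827 libraries. RBFOX2, PTBP1 and MBNL1 of the same list were not called. The deposited values are given per entry and not per transcript, so that splice forms of the receptors could not be compared. With single libraries left out the adjusted p from limma stayed at or below 0.0272 for ESRP1 and ran from 0.0673 to 0.109 for ESRP2.

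**Figure D4:**
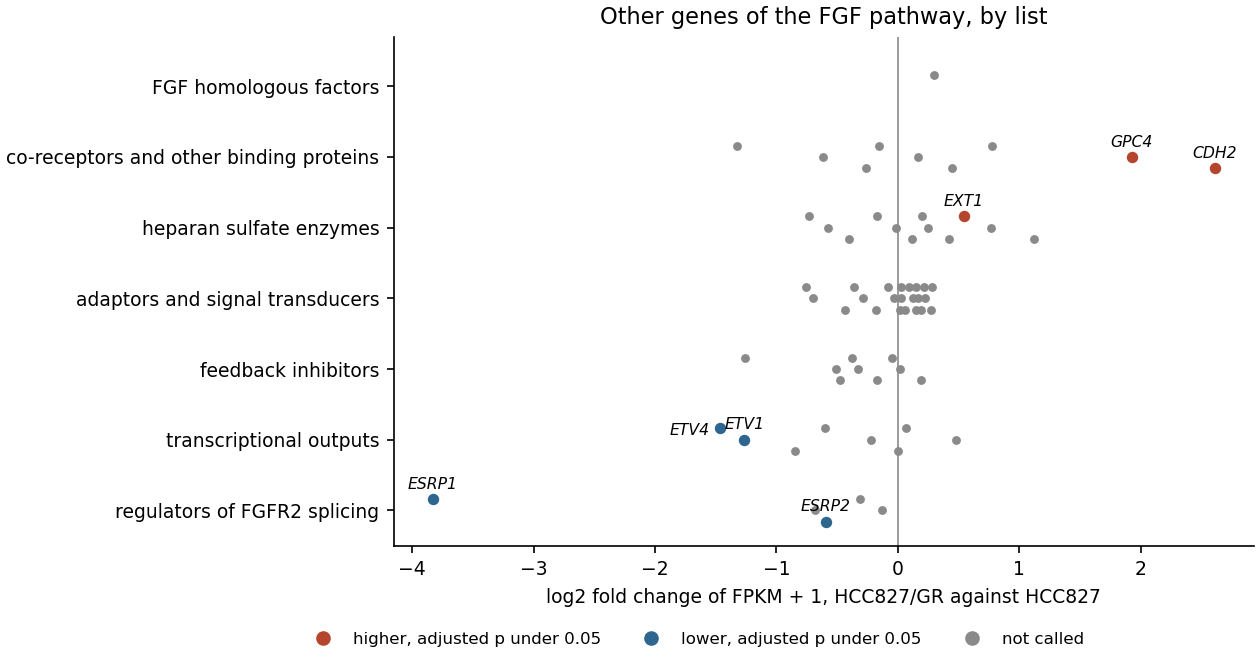
Log2 fold changes of FPKM + 1, HCC827/GR against HCC827, of the 66 tested genes of the FGF pathway lists, with a point for each gene and the called genes named (red higher, blue lower, gray not called). CDH2, GPC4 and EXT1 lie to the right, ESRP1, ETV4, ETV1 and ESRP2 to the left, and no adaptor, signal transducer or feedback inhibitor was called.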

How the data were processed

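Total RNA of 3 HCC827/GR and 2 HCC827 libraries had been sequenced. The authors trimmed reads (Cutadapt), checked their quality (FastQC), mapped them (Bowtie2, TopHat2), assembled transcripts (StringTie) and deposited 1 FPKM value per entry and library, from StringTie and Ballgown, without read counts. The submitters' processing notes name hg18, and versions are not given in the sources used here. The methods describe rRNA-depleted RNA read in pairs, whereas the labels describe a small-RNA library with single-end reads. A further column (1 column) matched no sample and was not used. Groups came from the sample titles.

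The entry of highest mean FPKM stood for each symbol, and no value was rescaled. HCC827/GR was compared with HCC827 on log2(FPKM + 1) with limma 3.58.1 (R 4.3.3), using lmFit followed by eBayes with trend, for 16189 entries with a mean of 0.5 FPKM or more, with two-sided p-values adjusted over all of them by Benjamini-Hochberg. The fit was tested on simulated data. Python 3.11.15, numpy 2.4.6, pandas 2.3.3 and matplotlib 3.10.9 made tables and plots. Positions came from GENCODE release 29 (GRCh38), by symbol, and promoters from RefSeq.

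The 10 genes and all lists were chosen with earlier results of these data known. Other genes named were the called ones of each list (up to 4 each way), list genes whose role is described, the 3 closest profiles of the 3 genes with the largest change, and the nearest protein-coding genes beside FGFBP1, FGFR1 and FGF19. Genes that overlap FGFR1 or FGF2, and the marker genes, were named after their values were seen. So were list genes that meet none of these rules, such as FGF8, FGF9, FGF22, SPRY4, IL17RD, SOS1, CCND1 and MYC. List genes without an entry were not analysed here. Alternatives changed the pseudocount (0.1), the filter (none, or a mean of 1 FPKM or more), the scaling (median ratio, quantile), the trend of limma, the model (Ballgown-style with a library-size covariate, or the replicate number as a block) and the summary (entries of a symbol summed, ratio of means), or left out each library. Leaving out both libraries numbered 3 was added after the data were seen.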

Additional observations from a re-analysis of the deposited data

How the results depend on the processing

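The direction of FGFR1, FGFR4 and FGFBP1 held in all 15 alternatives with a test, while the adjusted p-values varied. The log2 fold change of FGFR1 ran from 2.60 to 3.48, that of FGFR4 from 0.55 to 0.68 and that of FGFBP1 from -4.74 to -3.01, and the call held in 11, 7 and 12 of the 15. The log2 fold change of FGFR3 changed sign to -0.0399 without HCC827/GR replicate 2 and ran up to 0.12 with single libraries left out, and FGFR3 was called in none.

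With the Ballgown-style model, 6 entries were called higher and 9 lower, where limma called 851 and 924. This model called 0 members and 0 pathway genes in either direction. At an unadjusted p under 0.05 from this model, 1470 of 16189 entries were higher and 1312 lower. Of these, 2 and 1 were members and 7 and 11 pathway genes. The model leaves fewer degrees of freedom and does not share the spread between genes. With the replicate block, limma called 0 entries, 0 members and 0 pathway genes in either direction, against 1676 entries higher and 1869 lower at an unadjusted p under 0.05, of which 3 and 1 were members and 8 and 15 pathway genes. HCC827/GR replicate 1 has no partner and adds nothing to this fit. The labels do not say that the numbers pair libraries. The correlation of deviations across entries was 0.033 for number 2 and 0.015 for number 3, a check limited by the 2 HCC827 libraries, whose deviations mirror each other, and it does not exclude shared deviations of single genes such as FGF2. Without both libraries numbered 3, limma likewise called 0 entries, members and pathway genes in either direction (1924 entries higher and 1969 lower at an unadjusted p under 0.05, with 3 and 1 members and 3 and 9 pathway genes), on 3 libraries. With no filter on low values, 504 entries were called higher.

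With single libraries left out, entries called higher ranged from 181 to 450 and lower from 248 to 434, members called higher from 0 to 1, against 2 in the main comparison, and pathway genes called higher and lower from 1 to 2, against 3 and 4. These fits rest on fewer libraries, and where HCC827 keeps 1 library it is assumed to vary like HCC827/GR. The unknown depth limits what can be said of FGFR2, FGF1, FGF5 and FGF19.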
